A study of Mus musculus with 3 samples.

Results

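The Mrgpr genes encode Mas-related G protein-coupled receptors, and 6 of them that mark connective tissue mast cells were read here by their gene symbols: Mrgprb1, Mrgprb2, Mrgprb8, Mrgprb13, Mrgpra4 and Mrgpra6. Of these 6 named genes, 5 had a row among the 17613 rows with a symbol, and the whole table holds 20677 rows. No row carried the symbol Mrgprb13, so its level was not analysed here. The table has 17 rows whose symbol starts with Mrgpr, and the 12 that are not members were read beside them. The values are FPKM, fragments per kilobase of transcript and scaled to the library's total fragments, which allows levels to be set side by side between genes.

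The cells were mast cells sorted from the skin of mice 1 week after birth, on a mixed background labelled C57BL/6xCD1xFVB. All carried the EYFP reporter and a Cre recombinase that 4-hydroxytamoxifen (4'OHT) switches on, and each library holds the labelled cells of 1 origin. Csf1rCre/EYFP mice given 4'OHT at embryonic day 8.5 gave the library labelled early EMP, an early erythro-myeloid progenitor origin. Runx1Cre/EYFP mice gave the library labelled late EMP when pulsed at day 8.5 and the library labelled fetal HSC, a fetal haematopoietic stem cell origin, when pulsed at day 9.5. Origin is thus defined by driver and time of pulse, and the driver cannot be told apart from origin where early EMP is one of the pair. The sources used here do not give how many animals went into a library. There is 1 library per origin, so the values carry no SE or SD and no test was possible.

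Mrgpr receptors are a family that expanded in rodents through gene duplication. Many members are known from nociceptive sensory neurons, where they detect itch-inducing and other irritant molecules. In mouse connective tissue mast cells Mrgprb2 is the receptor for cationic compounds such as compound 48/80, certain drugs and the neuropeptide substance P, and it triggers degranulation without IgE. It is the functional counterpart of human MRGPRX2. The mouse gene named Mrgprx2 in the table is another gene, also called Mrgprb10. These receptors act through G proteins of the Gq and Gi classes, phospholipase C beta, inositol trisphosphate and calcium.

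All 5 members lie in a single cluster on chromosome 7 that the RefSeq annotation of GRCm38.p6 places from 47185717 to 48685560, a span of 1.5 Mb. The span holds 27 RefSeq genes named Mrgpr, of which 15 are protein coding and the others are pseudogenes. Mrgpra6 (47185717 to 47189416) stands at one edge, and Mrgpra4 (47980794 to 47982296) in the middle. Mrgprb13 (48311304 to 48312323) and Mrgprb8 (48388526 to 48389648) follow. Mrgprb1 (48444113 to 48456342), Mrgprx2 (48478619 to 48499270) and Mrgprb2 (48550965 to 48558086) are consecutive among the annotated genes, within 114 kb and on the minus strand. RefSeq lists Mrgpra6 as a transcribed pseudogene, whereas the GENCODE M21 annotation lists it as protein coding. For Mrgprb13 the lists differ the other way, with RefSeq giving a protein-coding model and GENCODE a pseudogene.

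The 250 bases before the annotated start are shown for Mrgprb1, Mrgprx2 and Mrgprb2, because these adjacent genes had the same order of levels over the 3 libraries, and for Mrgprb8 and Mrgprb13, because they are each other's closest copy. The sequences are from RefSeq, build GRCm38.p6, and read 5′ to 3′ on the gene's own strand. Capitals mark the letters TGACTCA, the core of an AP-1 site, and the longest run that Mrgprb1, Mrgprx2 and Mrgprb2 share exactly.
Mrgprb1, chr7:48456343-48456592, minus strand: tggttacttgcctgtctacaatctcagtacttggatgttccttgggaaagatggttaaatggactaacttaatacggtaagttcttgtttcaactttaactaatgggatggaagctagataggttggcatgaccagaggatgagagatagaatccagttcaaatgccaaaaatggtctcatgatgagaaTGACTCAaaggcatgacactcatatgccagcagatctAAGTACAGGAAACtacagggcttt
Mrgprx2, chr7:48499271-48499520, minus strand: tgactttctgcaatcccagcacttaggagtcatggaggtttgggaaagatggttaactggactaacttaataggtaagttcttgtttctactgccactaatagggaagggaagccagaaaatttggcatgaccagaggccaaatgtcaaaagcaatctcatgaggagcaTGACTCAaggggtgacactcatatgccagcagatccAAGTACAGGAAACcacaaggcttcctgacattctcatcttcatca
Mrgprb2, chr7:48558087-48558336, minus strand: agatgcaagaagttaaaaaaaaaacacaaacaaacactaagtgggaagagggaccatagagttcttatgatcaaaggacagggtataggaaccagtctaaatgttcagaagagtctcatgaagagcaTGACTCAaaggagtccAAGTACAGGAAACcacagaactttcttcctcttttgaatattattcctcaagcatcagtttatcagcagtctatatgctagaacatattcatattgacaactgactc
Mrgprb8, chr7:48388276-48388525, plus strand: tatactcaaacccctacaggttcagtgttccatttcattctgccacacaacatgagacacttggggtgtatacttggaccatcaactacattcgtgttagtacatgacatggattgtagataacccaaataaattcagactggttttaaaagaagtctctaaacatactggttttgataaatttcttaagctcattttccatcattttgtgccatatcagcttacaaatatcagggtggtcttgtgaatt
Mrgprb13, chr7:48311054-48311303, plus strand: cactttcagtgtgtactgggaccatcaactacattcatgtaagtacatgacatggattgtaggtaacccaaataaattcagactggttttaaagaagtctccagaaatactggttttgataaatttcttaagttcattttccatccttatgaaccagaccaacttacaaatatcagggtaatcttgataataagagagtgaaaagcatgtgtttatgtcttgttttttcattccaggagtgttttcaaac

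The shared run, AAGTACAGGAAAC, has 13 bases. On either strand it was found in 5 of 32851 promoter windows of the same length, those of the 3 receptors and of Gtdc1 and Slco6c1. It starts 24 bases before the annotated start in Mrgprb1, 45 in Mrgprx2 and 107 in Mrgprb2. In all 3 the letters TGACTCA stand upstream of it, starting 61, 81 and 123 bases before the start in the same order. TGACTCA occurs, on either strand, in 4.46% of all windows. The RUNX core TGTGGT was found on the reverse strand in Mrgprx2 and Mrgprb2 (14.0% of all windows), where it overlaps the end of the shared run, and not in Mrgprb1. Of the 6 windows searched, that of Mrgprb8 alone held the GATA core AGATAA (9.99% of all windows) and that of Mrgprb13 alone the E-box letters CATGTG (12.3%). The AP-1 and RUNX letters and the shared run were not found in the windows of Mrgprb8, Mrgprb13 or Mrgpra4. Whether transcription begins at the annotated starts was not tested for any of these genes. The motifs were picked after the sequences and levels had been seen, and a match is a stretch of letters, not a measured binding site. In a local alignment that did not leave out the shared run, the windows of Mrgprb1 and Mrgprx2 were 86.8% identical over 219 aligned bases. Those of Mrgprb8 and Mrgprb13 were 88.7% identical over 186.

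Because the genes are duplicates, reads of one can be counted for another, so the transcripts in GENCODE M21 were compared base by base. Mrgprb1 was closest to Mrgprx2, at 86.1% identity over 2261 aligned bases. Mrgprb8 was closest to Mrgprb13, at 87.4% over 975 bases. Mrgprb2 had no relative above 79.1% among alignments of 400 bases or more, and its closest was the pseudogene Mrgprb11-ps. Mrgpra4 and Mrgpra6 were 86.1% identical to each other. Each had a closer relative, the pseudogene Mrgpra14 for Mrgpra4 (90.8%) and Mrgpra9 for Mrgpra6 (90.6%).

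Exact sharing was rarer than these figures. None of the 50-base words of the longest transcript of Mrgprb1, Mrgprb2 or Mrgprx2 occurred in a transcript of another gene. For Mrgprb8 it was 6 of 1074 words (0.559%), all shared with Mrgprb13. The share was 13.1% in Mrgpra4, with Mrgpra3 and Mrgpra14 among the genes it shares words with, and 7.40% in Mrgpra6, with Mrgpra9 among them. No word of 100 bases was shared for any member or for Mrgprx2. The sources used here do not give the read length, and the mice are not a pure C57BL/6J stock, so the sequences of their copies may differ from these. The values of Mrgpra4, Mrgpra6 and Mrgprb8 are therefore less certain than those of Mrgprb1 and Mrgprb2. Mrgprb8 and Mrgpra4 also carry unnamed transcript models in the table, 2 and 7 of them, beside their RefSeq transcript.

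Depth is not stated. The steps between low FPKM values implied depths, in units of 1e6 fragments, of about 15.3 for early EMP, 15.4 for late EMP and 17.3 for fetal HSC, with 66.9%, 68.7% and 63.0% of the values used falling no more than 0.15 from whole fragment numbers. The estimate is fitted to these same values and is imprecise. At that depth 1 fragment of Mrgpra6 is worth 0.0738, 0.0733 and 0.0675 FPKM, and the lowest member value, 30.1 FPKM for Mrgpra4, stands for about 573 fragments. These figures use the length of 1 RefSeq transcript per gene, though the Mrgpra4 row holds 8 transcripts and the Mrgpra6 row 2. Summed FPKM was 639067, 614207 and 640500. Genes listed for connective tissue mast cells were present in all 3 libraries: 11 of 11 with a row, among them Cma1, Tpsb2 and Cpa3, were at 23.6 FPKM or more in each. Only the tryptase Tpsab1 was at least 2-fold apart in any comparison, at 4431, 7524 and 3608 FPKM. Such differences were also rare among the 2461 genes with a symbol at 30 FPKM or more in at least 1 library. Their share was 6.22% for late against early EMP. With fetal HSC it was 9.02% against early EMP and 3.01% against late EMP. Over the 14412 rows at 1 FPKM or more in at least 1 library, the shares were 19.4%, 26.0% and 11.7%. With 11 genes, the low count does not set these markers apart from other abundant genes. Genes listed for mucosal mast cells were present too, with Mcpt1 at 0.07, 10.4 and 4.36 FPKM, Mcpt2 at 7.62, 35.2 and 60.1, Mcpt8 at 14.5, 17.5 and 35.9, and Mcpt9 at 14.5, 12 and 20.9. Of these, Mcpt8 was listed for basophils as well. Xist was at 25.6, 0.53 and 52.0 FPKM and the Y-linked Ddx3y at 20.7, 38.5 and 0.32, so the sex of the animals cannot be told apart from origin either.

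Mrgprb2 was the most abundant receptor of the family. Its level was 902 FPKM with an early EMP origin, 802 with a late EMP origin and 755 with a fetal HSC origin. Among genes with a symbol its rank was 63, 68 and 78. The highest library exceeded the lowest by 1.19 times, the narrowest range of any member. Its share of the FPKM summed over the 5 members stayed between 45.7% and 50.1%.

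Mrgprb1, for which no ligand is stated here, came next. Its level was 547 FPKM with an early EMP origin, 515 with a late EMP origin and 423 with a fetal HSC origin, a range of 1.29 times. The order of the libraries was the same as for Mrgprb2, and the ratio of Mrgprb2 to Mrgprb1 stayed between 1.56 and 1.78. Mrgprx2, which lies between them, was at 107, 75.5 and 55.8 FPKM, again in that order, with a wider range of 1.91 times. The ratio of Mrgprb1 to Mrgprx2 accordingly went from 5.12 to 6.82 and 7.58. Among 2461 genes with a symbol at 30 FPKM or more in at least 1 library, 17.4% had this order of libraries.

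Mrgprb8 ran the opposite way. Its level was 182 FPKM with an early EMP origin, 207 with a late EMP origin and 261 with a fetal HSC origin, a range of 1.43 times. It made up 10.1%, 11.8% and 17.3% of the member sum. Mrgprb2 exceeded it by 4.94, 3.87 and 2.90 times. Reads of Mrgprb13, its closest copy, may be included in these values, and this was not tested. The same order of libraries was seen in 23.7% of the 2461 genes.

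**Figure D1:**
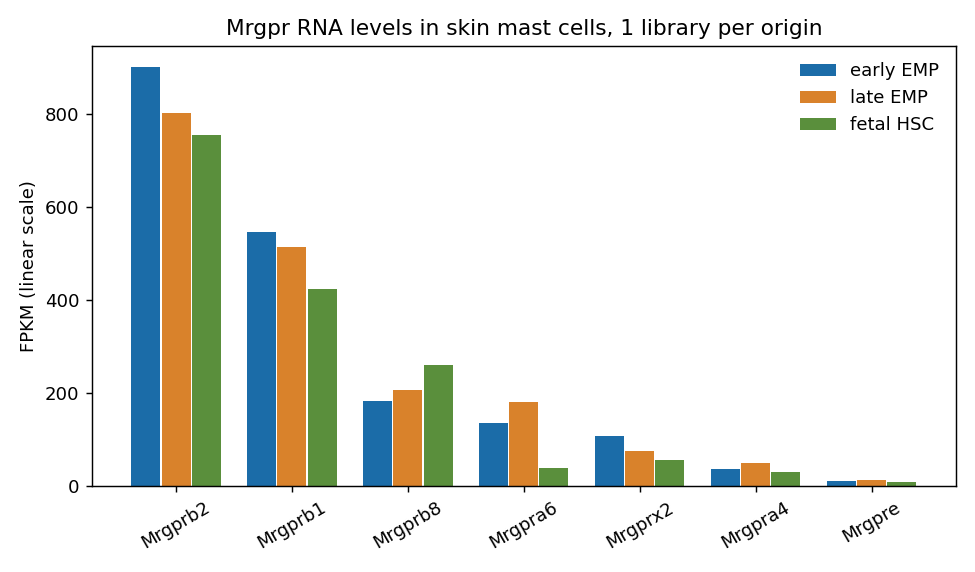
RNA level in FPKM on a linear axis for the 7 Mrgpr genes that reach 10 FPKM in any library, with 1 bar per library and no error bars because each origin has 1 library. Mrgprb2 and Mrgprb1 are highest in every library, Mrgprb8 is highest in fetal HSC, and Mrgpra6 falls from 181 FPKM in late EMP to 39.1 in fetal HSC.

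Mrgpra6 varied most. Its level was 135 FPKM with an early EMP origin, 181 with a late EMP origin and 39.1 with a fetal HSC origin. The fetal HSC library stood apart from both EMP libraries, and the highest value exceeded the lowest by 4.63 times. The fragments implied for these values, from the length of 1 of its 2 transcripts, were about 1836, 2471 and 579. Its share of the member sum was 7.52%, 10.3% and 2.59%.

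Mrgpra4, reported to respond to RF-amide neuropeptides, was the lowest member. Its level was 35.9 FPKM with an early EMP origin, 48.9 with a late EMP origin and 30.1 with a fetal HSC origin. The order of the libraries was that of Mrgpra6, an order that 13.9% of the 2461 genes had, but the range was 1.62 times. Mrgpra6 therefore exceeded Mrgpra4 by 3.78 and 3.71 times in the EMP libraries and by 1.30 times in the fetal HSC library. Summed, the pair was at 171, 230 and 69.2 FPKM. The part of reads shared with other copies in these values was not tested. All 6 Mrgpra rows together gave 172, 231 and 70.2 FPKM.

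**Figure D2:**
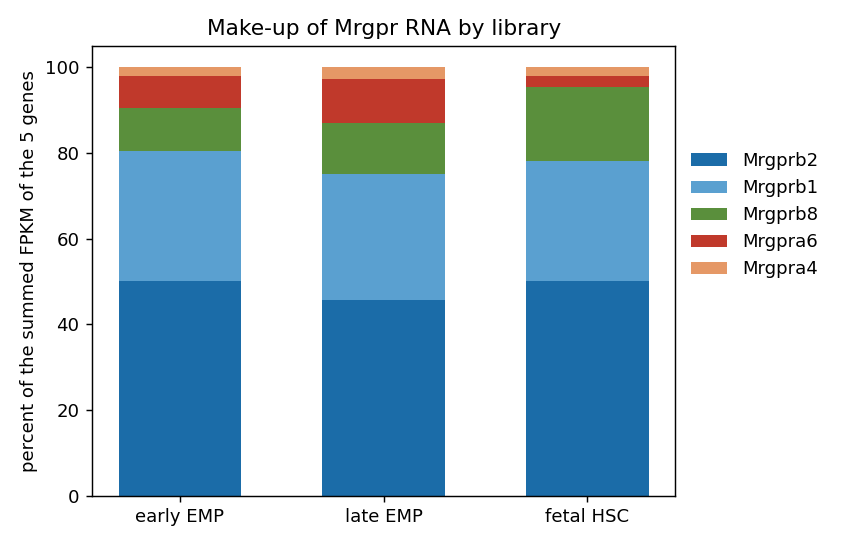
Share of each member in the FPKM summed over the 5 members, in percent, with 1 stacked bar per library. Mrgprb2 makes up between 45.7% and 50.1%, while Mrgprb8 takes 17.3% and Mrgpra6 2.59% in the fetal HSC library.

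In order of level, Mrgprb2 and Mrgprb1 did not overlap in their ranges over the 3 libraries, nor did Mrgprb1 and Mrgprb8. Mrgprb8 (from 182 FPKM) and Mrgpra6 (up to 181 FPKM) nearly met, and Mrgpra6 exceeded Mrgprb8 in no library. Mrgpra6 and Mrgprx2 overlapped and changed places, Mrgpra6 being higher in both EMP libraries and Mrgprx2 in the fetal HSC library. Together the 5 members reached 1802, 1755 and 1509 FPKM, or 0.282%, 0.286% and 0.236% of all FPKM. Fewer cells with a receptor and less RNA per cell cannot be told apart in such bulk values.

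Late EMP over early EMP asks how cells labelled through Runx1Cre differ from those labelled through Csf1rCre at the same day of pulse. None of the 5 members was at least 2-fold apart on the log2(FPKM + 1) scale, against 19.4% of the 14412 rows at 1 FPKM or more in at least 1 library. Those rows include many low ones. Among the 2461 genes with a symbol at 30 FPKM or more in at least 1 library, a level that all members reach, the share was 6.22%. The largest differences were those of Mrgpra4 and Mrgpra6, higher in late EMP by 0.44 and 0.42 on the log2 scale. The values were 0.18 for Mrgprb8, -0.09 for Mrgprb1 and -0.17 for Mrgprb2. The median of the 5 was 0.18, against 0.07 over the 2461 genes and 0.00 over all 14412 rows.

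Fetal HSC over early EMP compares cells that differ in both driver and day of pulse. Of the 5 members, 1 was at least 2-fold apart, against 26.0% of the 14412 rows and 9.02% of the 2461 genes. Lower by 2-fold or more were 3.49% of the 2461 genes. The member was Mrgpra6, lower in the fetal HSC library by 3.46 times in FPKM (log2 -1.77). Among the 2461 genes, 29 were at least as far down, Mrgpra6 included. Mrgprb8 was higher by 0.51 on the log2 scale, and Mrgprb1, Mrgprb2 and Mrgpra4 stood at -0.37, -0.26 and -0.24. Mrgprx2 was at -0.92. The median of the 5 was -0.26, against 0.05 over the 2461 genes and -0.11 over all rows.

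Fetal HSC over late EMP compares the days of pulse within the Runx1Cre line. Mrgpra6 was again the 1 member of 5 at least 2-fold apart, against 11.7% of the 14412 rows and 3.01% of the 2461 genes. Lower by 2-fold or more were 1.99% of the 2461 genes. Mrgpra6 was lower in the fetal HSC library by 4.63 times in FPKM (log2 -2.18), and 14 of the 2461 genes, itself included, were at least as far down. Mrgpra4 was also lower (-0.68), short of 2-fold. Mrgprb1 stood at -0.28 and Mrgprb2 at -0.09, which turned to 0.04 with median-of-ratios scaling, and Mrgprb8 at 0.33. The median of the 5 was -0.28, against 0.00 over the 2461 genes and -0.10 over all rows. Each pair of the comparisons shares a library, so the low fetal HSC value of Mrgpra6 enters both of its comparisons.

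**Figure D3:**
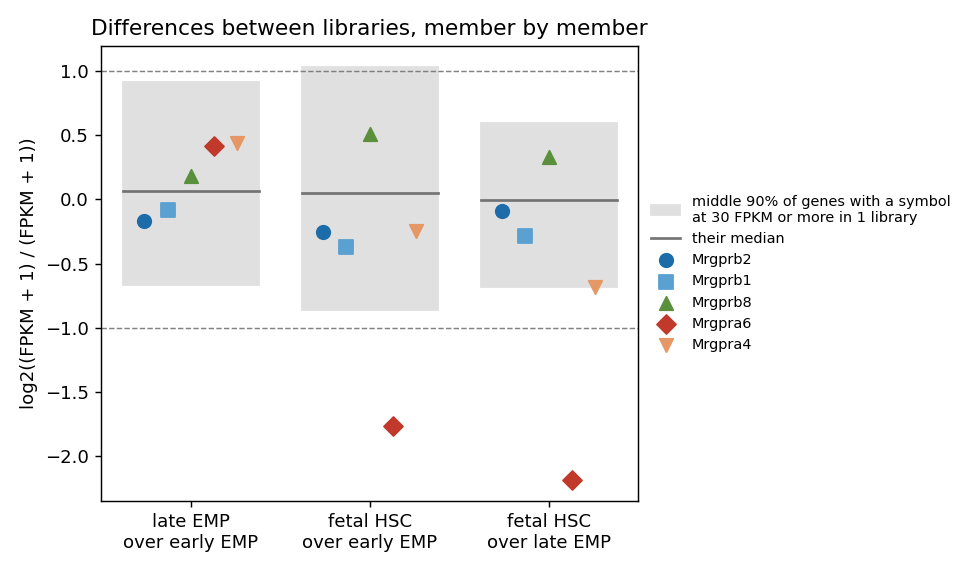
Log2 ratio of FPKM + 1 between libraries for each of the 5 members in the 3 comparisons, beside the middle 90% (grey box) and the median (grey line) of the 2461 genes with a symbol at 30 FPKM or more in at least 1 library; dashed lines mark 2-fold. Mrgpra6 lies at -1.77 and -2.18 in the comparisons with fetal HSC, below the grey boxes, and Mrgprb1, Mrgprb2 and Mrgprb8 lie inside them in every comparison.

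The rest of the family was near or at 0. Mrgpre, which lies elsewhere on chromosome 7 (143778363 to 143784500), was the only other row besides Mrgprx2 to reach 10 FPKM. Its level was 9.56 FPKM in early EMP, 13.3 in late EMP and 7.56 in fetal HSC, the same order of libraries as Mrgpra4 and Mrgpra6. Mrgprb3 was listed at 0, 0.41 and 1.25 FPKM. The other 9 rows were under 1 FPKM in every library, with a highest value of 0.96 for Mrgpra9 in fetal HSC. They include Mrgpra3 and Mrgprd, known from sensory neurons as receptors for chloroquine and beta-alanine, at most 0.38 and 0.09 FPKM.

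Neighbouring positions in the cluster held very different levels. Among rows of the table, Mrgprb8, Mrgprb1, Mrgprx2 and Mrgprb2 follow each other with none near 0 between them. Mrgpra6 and Mrgpra4 stand apart from them, with Mrgpra9 next to Mrgpra6 and Mrgprx1 (at most 0.12 FPKM) next to Mrgpra4 near 0, and Mrgprb3 beyond Mrgprb2 was low too. Of the nearest genes outside the cluster with a row, Ptpn5, a phosphatase gene 51.7 kb before it, was at 0, 0.02 and 0 FPKM. Zdhhc13, which encodes a palmitoyltransferase 103 kb after it, was at 30.1, 34.9 and 36.4 FPKM. Further out, Tmem86a was at 0, 0.43 and 0.74 FPKM, Spty2d1 at 30.5, 49.4 and 55.4, Csrp3 at 0.66, 1.88 and 6.11, and E2f8 at 1.00, 4.02 and 1.82. None of these 6 neighbours had the order of libraries of Mrgprb2 or of Mrgpra6. Spty2d1, Tmem86a, Zdhhc13 and Csrp3 had that of Mrgprb8, an order seen in 23.7% of the 2461 genes.

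**Figure D4:**
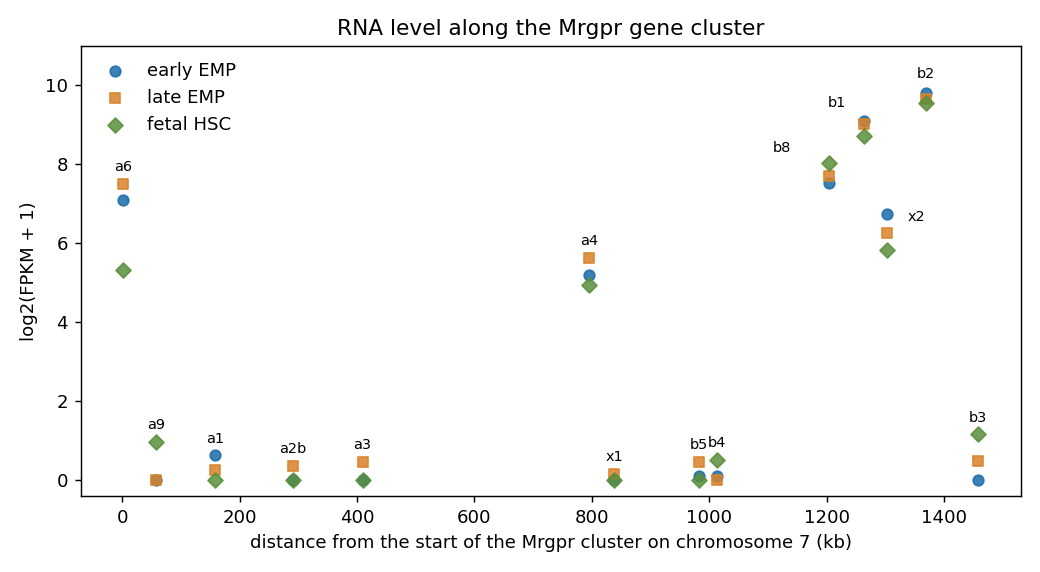
RNA level as log2(FPKM + 1) of the 14 Mrgpr rows in the chromosome 7 cluster against the distance of each gene's midpoint from the start of the cluster, in kb, with 1 symbol per library and names shortened by the prefix Mrgpr. Mrgprb8, Mrgprb1, Mrgprx2 and Mrgprb2 sit together toward the right, Mrgpra6 and Mrgpra4 stand alone, and the other 8 genes lie at or near 0.

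Genes through which these receptors signal were read from lists of known function. Among all 14412 rows, 8.64% were at least 2-fold higher and 10.8% lower in late than in early EMP. For fetal HSC the shares were 8.18% higher and 17.8% lower than in early EMP, and 3.44% higher and 8.26% lower than in late EMP. Of 13 G protein subunits, all 13 were measured at 1 FPKM or more, and none was at least 2-fold apart between late and early EMP. In fetal HSC, 1 was higher than in early EMP and 1 lower than in late EMP. Gnb1, a beta subunit, was at 117, 171 and 262 FPKM, log2 1.15 over early EMP. Gna15, a promiscuous alpha subunit of the Gq class, was at 8.04, 12.7 and 4.27 FPKM, the order of Mrgpra6. Gna11 and Gnb4 of the same list also had that order. Gng5 and Gnb4, a gamma and a beta subunit that with Gnb1 had the highest means over the 3 libraries, were at 361, 393 and 395 FPKM and at 133, 142 and 123 FPKM.

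Of 12 genes from phospholipase C beta to calcium entry, 10 were measured at 1 FPKM or more. None was at least 2-fold apart between late and early EMP, or between fetal HSC and late EMP, and 2 were lower in fetal HSC than in early EMP. Stim1, the calcium sensor of the endoplasmic reticulum, was at 41.8, 29.4 and 16.4 FPKM, and Orai2, a calcium channel subunit, at 19.8, 16.3 and 8.77. Plcb2, the leading phospholipase C beta, was at 22.0, 24.4 and 19.1 FPKM. The list's median log2 difference was -0.18 between late and early EMP, and for fetal HSC it was -0.20 against early EMP and -0.19 against late EMP.

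Of 15 genes for receptor kinases, arrestins and RGS proteins, which desensitise such receptors or shorten the G protein signal, 2 were higher in late EMP than in early EMP, 2 were higher in fetal HSC than in early EMP, and 1 was lower in fetal HSC than in late EMP. Adrbk2, a receptor kinase, was at 12.2, 27.5 and 28.9 FPKM, and Grk4, a kinase of the same family, at 13.3, 15.6 and 6.59. Rgs1, Rgs2 and Rgs18 were the most abundant. Rgs1 was at 2956, 2447 and 2641 FPKM, Rgs2 at 437, 554 and 572, and Rgs18 at 373, 435 and 586.

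Genes for peptides reported to activate Mrgpr receptors were low in the sorted cells. Of 13 listed, 7 had a row and 6 reached 1 FPKM in any library. Penk, which encodes enkephalins, was at 9.26, 8.97 and 17.8 FPKM, and Tac1, named because it encodes substance P, at 0.31, 0.58 and 2.33. Cck was at 5.42 FPKM in early EMP and listed at 0 in the other libraries. Pomc, among the leading members, was at 1.65, 1.49 and 1.15 FPKM.

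Because Mrgpr genes are also known from sensory neurons, markers of neurons and glia were read in the same libraries. Of 14 with a row, 10 stayed under 1 FPKM in every library. Among the nociceptor channel genes, Scn10a and Trpv1 were at 0.02 FPKM or less, P2rx3 at 0.07 or less, Scn9a at 0.23 or less and Trpa1 at 0.27 or less, while Scn11a was at 0.63, 1.45 and 1.65. The other 3 that reached 1 FPKM were Tac1, given above, Nefh at 0.44, 0.76 and 1.57, and Calca, which encodes the neuropeptide CGRP, at 16.6, 22.8 and 43.0 FPKM. Calca and Tac1 were at least 2-fold higher in fetal HSC than in early EMP, and Tac1 also than in late EMP. The summed list was at 19.2, 26.3 and 49.6 FPKM, mostly Calca, which is the order of libraries of Mrgprb8 and the reverse of that of Mrgprb2. The 7 keratinocyte markers summed to 1.03, 3.77 and 5.13 FPKM, also in the order of Mrgprb8, led by Krt15 at 0.04, 0.57 and 3.67. Besides Krt15 only Krt10 had that order singly, while Krt5, Krt14 and Trp63 were highest in late EMP. Of the 7, 5 stayed under 1 FPKM in every library. The 6 fibroblast markers summed to 1.54, 7.20 and 3.70 FPKM.

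The 8 macrophage markers summed to 79.7, 54.8 and 22.9 FPKM, the order of Mrgprb1 and Mrgprb2, which Cd68 and Adgre1 did not have singly. Of those at 10 FPKM or more in any library, C1qa was at 14.8, 12.2 and 3.05, C1qb at 20.4, 13.3 and 3.96, C1qc at 17.1, 16 and 3.68, and Cd68 at 17.8, 6.44 and 9.70. Of the 7 at 1 FPKM or more, 4 were at least 2-fold lower in fetal HSC than in early EMP (Csf1r and the 3 C1q genes) and 4 than in late EMP (Adgre1 and the 3 C1q genes). T, NK and B cell markers summed to 15.5, 0.81 and 4.52 FPKM, led by Cd3e at 13.5 FPKM in early EMP. The basophil and eosinophil list summed to 2792, 922 and 1719 FPKM, led by Prss34 at 2386, 459 and 989 and Cd200r3 at 385, 434 and 687, genes that mast cells can share. Genes listed for mucosal mast cells summed to 36.9, 75.4 and 122 FPKM, the order of Mrgprb8, which Mcpt1 and Mcpt9 did not have singly. Mcpt8 is counted both in this list and in the basophil and eosinophil list. The part of these other markers in the Mrgpr values was not tested.

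The genes most like each member over the 3 libraries were taken from genes within 4-fold of its mean level, by the largest difference in centred log2(FPKM + 1). With only 3 points a close match is easily found, and it is a description. Mrgprb2 was closest to Cd69 (506, 456 and 433 FPKM; largest difference 0.02), followed by Etfb and Slc29a1. Adgre5 and Cox8a were among the genes closest to Mrgprb1, within 0.04. Bud31 and Sla were among those closest to Mrgprb8, within 0.02, and Mrgpra4 was closest to Pgd, Pcyt2 and Dnm2, also within 0.02. Mrgpra6 had few close matches: the nearest of 2002 genes was A130077B15Rik (50.9, 60.7 and 16.1 FPKM) at 0.17, then Rpl11 at 0.32 and Rhob at 0.45.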

How the data were processed

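Per the labels' protocols, TRIzol was used for the RNA of the sorted cells, and Beijing Genomics Institute sequenced it on a HiSeq. For the 3 libraries the authors deposited FPKM values to 2 decimals, per the file headers. Descriptions in the labels tied each column to its library. Named in the submitters' processing notes are RSEM and Bowtie2, with builds GRCm38 and mm10 and no versions. RSEM-type estimates can divide reads among copies, and a listed 0 can be a failed estimate.

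Each origin is 1 library, so no test was made. Differences are between log2(FPKM + 1) values, a scale on which low genes change less than in FPKM, and 2-fold was the threshold. Rows at 1 FPKM or more in at least 1 library were counted as background. Of 17613 identifiers with a symbol, 17569 matched the RefSeq table of GRCm38.p6, which gave coordinates and promoters. Transcripts of GENCODE M21 were aligned locally (match 2, mismatch -3, gap opening -5, extension -2). Depth was fitted to low values of genes with 1 transcript. The 2-fold call and the depth fit were tested on simulated data, and the other steps were not. The members, gene lists, motifs and comparisons were chosen with earlier results of these data known. Described beside the members were every other Mrgpr row at 1 FPKM or more, the 3 leading members of each list and those at 10 FPKM or more that were 2-fold apart, 3 neighbours on each side, and the 3 likest genes. Some genes that this rule admits, likest genes included, are not reported here. Alternatives were other pseudocounts (0.1 and 5 FPKM), filters (none and 5 FPKM), only rows with a symbol, and 3 rescalings. Python 3.11.15, numpy 2.4.6, pandas 2.3.3, Biopython 1.88 and matplotlib 3.10.9 were used.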

Additional observations from a re-analysis of the deposited data

How the results depend on the processing

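The count of members at least 2-fold apart was the same under all 9 other settings. It was 0 of 5 between late and early EMP, and 1 of 5 between fetal HSC and either EMP library. The limit to genes with a symbol at 30 FPKM or more was added after the data were seen. The filters and the limits to rows with a symbol act on the background only, so they could not alter a member value. Only the pseudocounts and the rescalings could. Of 135 member values under all 9 settings, including those that could not change, 1 changed direction. This was Mrgprb2 for fetal HSC over late EMP, at 0.04 with median-of-ratios factors. With the rescalings, 16 values, of Mrgprb1, Mrgprb2 and Mrgprb8, moved by more than the counting error of their implied fragments. The largest change of any member value was 0.12 on the log2 scale. Mrgpra6 ranged from -1.80 to -1.67 for fetal HSC over early EMP and from -2.24 to -2.06 over late EMP. Summed with Mrgpra4, an alternative added after the data were seen, these were -1.30 and -1.72. Sums of members at least 90% identical in protein were not run, since no protein sequences were used here.

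The background depended on the settings more. Between late and early EMP, then between fetal HSC and each of early and late EMP in that order, 2798, 3745 and 1686 rows were at least 2-fold apart. A pseudocount of 0.1 FPKM gave 4522, 5253 and 3615, and one of 5 FPKM gave 328, 460 and 195. A filter at 5 FPKM gave 766, 1097 and 524, genes with a symbol only gave 1356, 1919 and 930, and those at 30 FPKM or more gave 153, 222 and 74. The last 3 test fewer rows by construction. A larger pseudocount shrinks log2 ratios by construction, most of all in low rows. No paired analysis was possible because each group has 1 library. Without replicates, the spread between animals or preparations is unknown, and the imprecise depth covers counting error only.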
